A study of Mus musculus with 2 samples.

Results

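The 43 mitosis genes described here carry a cell from the onset of chromosome condensation to the separation of its daughters. They were matched by symbol among the 32285 genes of the deposited tables, where each of the 43 was found with at least 29 unique molecular identifiers (UMIs, each standing for 1 captured RNA molecule) in the cells kept. The kept-cell totals ran to 12401 UMIs with a median of 304 per gene. Cells with UMIs of at least 2 of Mki67, Top2a, Birc5, Cdk1 and Nusap1 were counted as dividing, and the other 38 genes played no part in that call.

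In an animal cell, cyclin B and CDK1 drive entry into mitosis, condensins and topoisomerase II compact and untangle the chromosomes, kinetochores attach them to a spindle of microtubules, and the anaphase-promoting complex then destroys the cyclins so that the cell can split. Most of the genes involved are transcribed late in the cycle and silenced in resting cells by the DREAM complex, so their RNA is a common mark of proliferation. Endothelial cells (EC), smooth muscle cells (SMC) and adventitial fibroblasts of an uninjured artery rarely divide, and each can enter the cycle after injury.

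The study took injured mouse carotid arteries 18 h after a temporary ligation that damages the endothelium. One library came from EC-Cx43-KO mice, labelled CDH5 Cre+ Cx43fl/fl, and one from controls labelled CDH5 Cre- Cx43fl/fl, so both carried the floxed Cx43 alleles and controls lacked the Cre, which the endothelial promoter CDH5 drives and the design text calls inducible. Arteries of a genotype were pooled after a short digest that favours luminal cells and were frozen in DMSO as cell suspensions, so each group is 1 library with no replicate, and no p-value can be given. Animal ages and sexes are not given in the sources used here.

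The library labelled EC-Cx43-KO held 8315 barcodes and 54392831 UMIs, of which 7236 cells were kept at a median of 4806.5 UMIs. The control library held 7298 barcodes and 48862850 UMIs, of which 6376 cells were kept at a median of 4759.5 UMIs. The libraries shared 17 barcodes, 11 of them among kept cells. Gja1, which encodes Cx43, was not lower in EC-like cells of the library labelled EC-Cx43-KO, at 30.3 counts per 1e+06 UMIs of the class (CPM, 95% interval 25.2 to 36.1) against 22.3 CPM (18.0 to 27.4) in control. The labels do not state which stretch of Gja1 is deleted, so whether these 3' tags can report the deletion is not known, and the group names below are those of the labels. Intervals given here cover counting error only. UMIs of 1 cell are not independent, and where a few cells hold most UMIs of a gene the intervals are too narrow.

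Cell classes were rebuilt from marker genes, and "X-like" means that the markers of X marked the cluster. Cells formed 24 clusters in 10 named classes, with 3 clusters left unnamed and called by their leading gene (Fabp5, Cacna1d and Adgre4). The Fabp5-led cluster of 1108 cells had 12 of 13 monocyte and macrophage markers, but platelet markers were among its leading genes.

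Many promoters of such genes are known to hold one or both of 2 short elements, the cell cycle homology region (searched as TTTGAA or TTCGAA) and the CCAAT box, which the factor NF-Y binds. RefSeq promoter windows on GRCm38.p6, from 250 bases before to 50 after the gene start, were at hand for 37 of the 43 genes. TTTGAA or TTCGAA, read on both strands, stood in 29 of these 37 (78.4%) and in 5854 of 27025 genes with a window (21.7%). CCAAT on either strand stood in 29 of 37 (78.4%) and in 11096 of 27025 (41.1%), and both elements stood in 25 of 37 (67.6%) and in 2328 of 27025 (8.61%). Birc5, Nuf2, Nusap1 and Tacc3 had neither in their windows. A match of one element can share an end letter with a match of the other, and each was counted on its own. The 150 bases before the start of 5 genes are printed 5' to 3' on the gene's own strand with matches in capitals: 3 genes of the dividing call, the degradation gene Ube2c, and Cks2, which is also found in neutrophils below and has CCAAT but no TTTGAA or TTCGAA in its window. They lie at chr10:69352913-69353062 (Cdk1, minus strand), chr11:99024190-99024339 (Top2a, minus), chr7:135716380-135716529 (Mki67, minus), chr2:164769779-164769928 (Ube2c, plus) and chr13:51645082-51645231 (Cks2, plus). A match is a string of letters and does not show that a factor binds there.
Cdk1: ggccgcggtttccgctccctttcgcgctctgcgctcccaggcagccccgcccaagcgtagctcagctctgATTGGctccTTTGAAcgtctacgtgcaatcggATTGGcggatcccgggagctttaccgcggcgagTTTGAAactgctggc
Top2a: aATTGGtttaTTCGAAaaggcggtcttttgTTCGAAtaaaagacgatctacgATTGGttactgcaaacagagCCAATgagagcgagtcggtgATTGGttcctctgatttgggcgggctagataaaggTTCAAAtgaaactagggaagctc
Mki67: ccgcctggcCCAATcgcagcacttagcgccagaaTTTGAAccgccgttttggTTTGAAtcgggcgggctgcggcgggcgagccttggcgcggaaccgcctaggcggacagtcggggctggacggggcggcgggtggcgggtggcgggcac
Ube2c: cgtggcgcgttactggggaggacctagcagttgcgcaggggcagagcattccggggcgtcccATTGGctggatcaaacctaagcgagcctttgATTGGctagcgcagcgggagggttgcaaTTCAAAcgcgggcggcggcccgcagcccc
Cks2: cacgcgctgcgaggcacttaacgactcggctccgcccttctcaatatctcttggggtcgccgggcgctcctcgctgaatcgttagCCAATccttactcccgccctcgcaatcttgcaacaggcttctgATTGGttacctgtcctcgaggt
The nearest match of TTTGAA or TTCGAA on either strand lies 15 bases before the RefSeq start in Cdk1, 23 in Top2a, 29 in Ube2c and 98 in Mki67. Another annotation, GENCODE, starts Cdk1 at chr10:69352938 and Ube2c at chr2:164769898, inside the printed stretches. By those starts these matches of Cdk1 and Ube2c lie within the genes and not before them. The Mki67 start also differs, at chr7:135716361.

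Dividing cells were mostly fibroblast-like in both libraries. Of the 90 dividing cells kept in the library labelled EC-Cx43-KO, 70 were fibroblast-like (77.8%, exact binomial interval 67.8 to 85.9%), against 80 of 96 in control (83.3%, 74.4 to 90.2%). Fibroblast-like cells made up 22.3% of all kept cells in the library labelled EC-Cx43-KO and 22.1% in control. The digest and freezing set which cells entered the libraries, so these are shares of the captured cells and not of the artery. A further 12 dividing barcodes of the library labelled EC-Cx43-KO and 4 of control fell to the filters or the doublet call and are not among these.

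Within the fibroblast-like class, 70 of 1616 cells (4.33%, 3.39 to 5.44%) were dividing in the library labelled EC-Cx43-KO and 80 of 1407 (5.69%, 4.53 to 7.03%) in control. The log2 ratio was -0.39 with an interval of -0.84 to 0.06, which includes 0 and covers counting error over cells of 1 library each. Requiring 3 of the 5 genes left 42 cells (2.60%) in the library labelled EC-Cx43-KO and 56 (3.98%) in control, a log2 ratio of -0.61 (-1.18 to -0.05). Median depth moved in the same direction, at 6249.5 UMIs per fibroblast-like cell in the library labelled EC-Cx43-KO and 6879 in control. After thinning each cell to 5000 UMIs, an alternative chosen after seeing the data, 31 of 925 cells (3.35%) were dividing in the library labelled EC-Cx43-KO and 41 of 846 (4.85%) in control.

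The mice were pooled, and the sexes were not equally represented among the fibroblast-like cells. Cells with Xist UMIs and none from 4 Y-linked genes numbered 536 in the library labelled EC-Cx43-KO and 638 in control, and of these 23 (4.29%) and 36 (5.64%) were dividing. Cells with Y-linked UMIs and no Xist numbered 587 in the library labelled EC-Cx43-KO and 392 in control, and of these 36 (6.13%) and 29 (7.398%) were dividing. The share was lower in the library labelled EC-Cx43-KO in both subsets, with overlapping intervals. Cells with neither kind of UMI numbered 448 in the library labelled EC-Cx43-KO and 345 in control, with 7 and 10 dividing. Their median depths were 1996.5 and 1509 UMIs, so the 2 subsets hold the deeper cells, at medians from 8079.5 to 9528 UMIs. Cells with both kinds numbered 45 and 32, with 4 and 5 dividing. The part of the sex mix in the difference between the libraries was not tested.

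**Figure D1:**
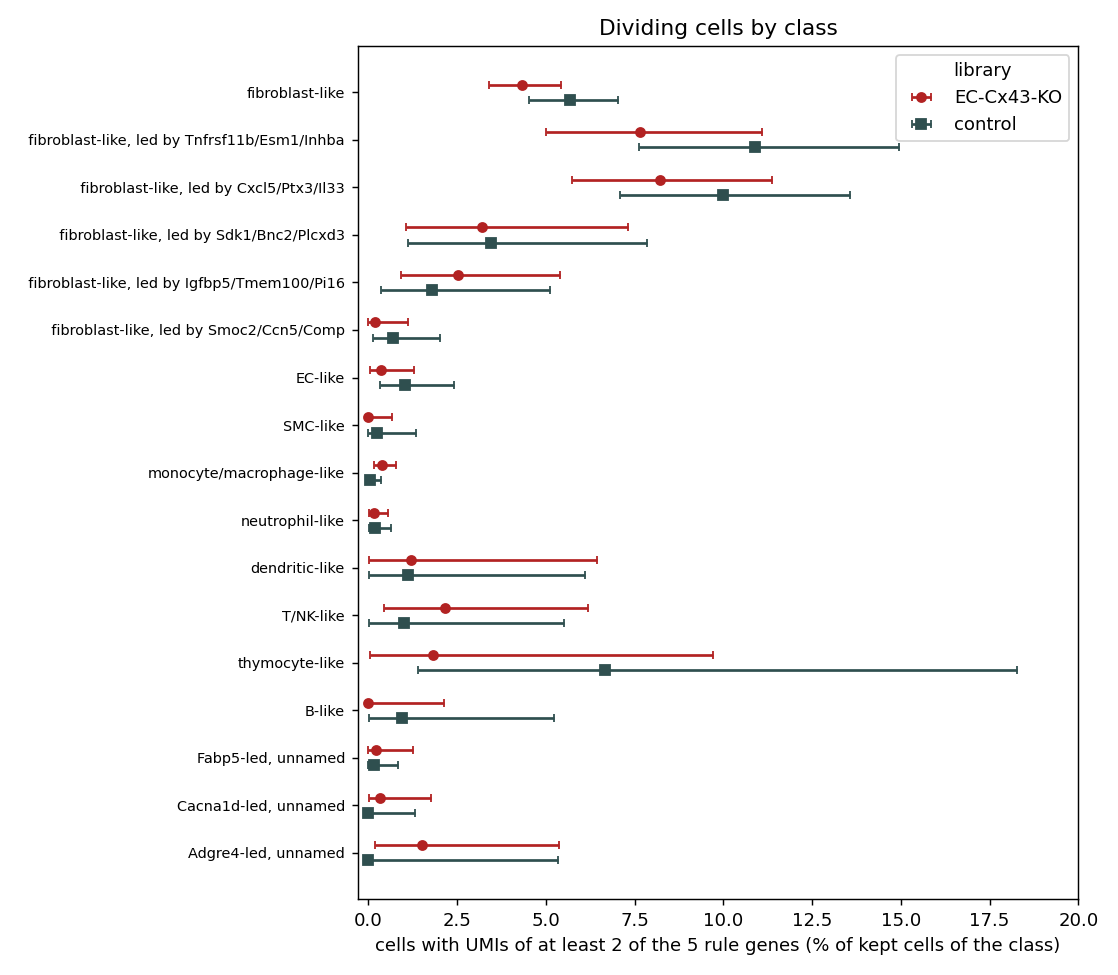
Share of cells with UMIs of at least 2 of the 5 genes of the dividing call (x axis, % of kept cells) in each class and in the 5 fibroblast-like clusters, with exact 95% binomial intervals, for the EC-Cx43-KO library (circles) and the control library (squares). The fibroblast-like clusters led by Tnfrsf11b and by Cxcl5 lie at 7.65 to 10.9%, while EC-like, SMC-like and neutrophil-like cells lie at or below 1.04%. Platelet-like cells are not drawn.

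The dividing cells were unevenly spread among the fibroblast-like clusters. The cluster led by Tnfrsf11b, Esm1 and Inhba had 25 dividing of 327 cells (7.65%) in the library labelled EC-Cx43-KO and 33 of 303 (10.9%) in control. The cluster led by Cxcl5, Ptx3 and Il33, which also had Il6 among its leading genes, had 33 of 401 (8.23%) in the library labelled EC-Cx43-KO and 36 of 360 (10.0%) in control. By contrast, the cluster led by the matrix genes Smoc2, Ccn5 and Comp had 1 of 494 (0.202%) in the library labelled EC-Cx43-KO and 3 of 431 (0.696%) in control. The remaining clusters, led by Igfbp5 and by Sdk1, had between 1.79% and 3.45% in either library. The Igfbp5-led cluster was the deepest of the 5, and after thinning to 5000 UMIs its shares were 1 of 226 cells in the library labelled EC-Cx43-KO and 1 of 160 in control, while the Tnfrsf11b-led cluster had 11 of 146 (7.53%) and 16 of 146 (11.0%). The Sdk1-led cluster kept 40 and 48 cells at that depth, with 4 (10.0%) and 2 (4.17%) dividing, so the order of the clusters was not the same at that depth.

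Few EC-like and SMC-like cells were dividing. EC-like cells had 2 dividing of 559 (0.358%, 0.0434 to 1.29%) in the library labelled EC-Cx43-KO and 5 of 479 (1.04%, 0.340 to 2.42%) in control. All of these lay in the deep EC-like cluster led by Cytl1, and 4 of the 5 control cells also had at least 3 markers of another cell family, against 0 of the 2 in the library labelled EC-Cx43-KO. Of the other EC-like cells, 32.1% had them in the library labelled EC-Cx43-KO and 34.6% in control. SMC-like cells had 0 of 545, which allows a share of up to 0.550% at 3 counts (0.675% by the exact binomial interval), in the library labelled EC-Cx43-KO and 1 of 411 (0.243%) in control.

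Immune classes had dividing cells in small numbers. Monocyte/macrophage-like cells had 7 of 1836 (0.381%, 0.153 to 0.784%) in the library labelled EC-Cx43-KO and 1 of 1609 (0.0622%, 0.00157 to 0.346%) in control, a log2 ratio of 2.62 with an interval of -0.40 to 5.64. With 3 of the 5 genes required, 1 cell was left in each library. The clusters that make up this class differed in size between the libraries, as given below. Neutrophil-like cells, which in blood and tissue no longer divide, had 2 of 1300 (0.154%) in the library labelled EC-Cx43-KO and 2 of 1110 (0.180%) in control at median depths of 1671.5 and 1853.5 UMIs. The called neutrophil-like cells were deeper than the rest of their class, at medians of 3881 UMIs in the library labelled EC-Cx43-KO and 6247.5 in control, and the part of free RNA in these calls was not tested. The control share of monocyte/macrophage-like cells lay below the neutrophil-like share. T/NK-like cells had 3 of 139 in the library labelled EC-Cx43-KO and 1 of 99 in control, thymocyte-like cells 1 of 55 and 3 of 45, and dendritic-like cells 1 of 84 and 1 of 89, counts too small to order.

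Depth differs widely among the classes, and the call needs UMIs of 2 genes in 1 cell. With every cell thinned to 1000 UMIs, 8 of 1475 fibroblast-like cells (0.542%) were dividing in the library labelled EC-Cx43-KO and 13 of 1260 (1.03%) in control, against 0 of 917 and 0 of 817 neutrophil-like cells. At 5000 UMIs, 1 of 1210 monocyte/macrophage-like cells was dividing in the library labelled EC-Cx43-KO and 1 of 936 in control. Of EC-like cells at 5000 UMIs, 1 of 323 was dividing in the library labelled EC-Cx43-KO and 0 of 289 in control. The fibroblast-like share thus lay above the shares of these classes at matched depth too. It did not lie above that of several small classes: at 1000 UMIs, 1 of 38 thymocyte-like cells in the library labelled EC-Cx43-KO and 3 of 25 in control were dividing, and in the library labelled EC-Cx43-KO also 1 of 84 dendritic-like, 1 of 126 T/NK-like and 1 of 132 Adgre4-led cells. At 5000 UMIs, 3 of 37 T/NK-like cells were dividing in the library labelled EC-Cx43-KO and 1 of 36 in control.

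The dividing fibroblast-like cells carried the markers of their class. The same markers had named their clusters, so this describes the cells and does not test their lineage. They had a median of 9 of the 9 fibroblast markers in both libraries, against 8 in the shallower other fibroblast-like cells. Per UMI the markers were lower, summing to 11295 CPM in dividing and 17790 CPM in other cells of the library labelled EC-Cx43-KO and to 12496 CPM and 19971 CPM in control. Dcn, a matrix proteoglycan, was found in 100% of dividing cells of the library labelled EC-Cx43-KO and 97.5% of control, and Pdgfra, a receptor of fibroblasts and their progenitors, was found in 95.7% of them in the library labelled EC-Cx43-KO and in 96.3% in control. Markers of EC, of monocytes and macrophages and of T cells had a median of 0 per cell, those of SMC and of neutrophils 1 and those of pericytes 2, in both libraries. Their median depth was 28685 UMIs in the library labelled EC-Cx43-KO and 23580.5 in control, against 5886.5 and 6478 for the other fibroblast-like cells of those libraries. At least 3 markers of another cell family were found in 9 of 70 cells (12.9%) in the library labelled EC-Cx43-KO and in 15 of 80 (18.8%) in control, against 5.56% and 6.93% of the other fibroblast-like cells. Ptprc, a leukocyte gene outside the marker lists, was found in 11.4% of dividing and 3.17% of other cells of the library labelled EC-Cx43-KO. In control it was found in 7.5% and 4.90%. The part of depth and of doublets in the call was not tested.

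The other mitosis genes were found in step with the number of dividing-call genes in a cell. Among fibroblast-like cells just outside the threshold, with 1 gene of the 5, a median of 2 of the other 38 genes had UMIs in the library labelled EC-Cx43-KO and 3 in control. Just inside it, with 2 genes, the median was 8 in the library labelled EC-Cx43-KO and 6.5 in control. Cells with all 5 had medians of 27.5 in the library labelled EC-Cx43-KO and 27 in control. Median depth was 5662 UMIs with none of the 5 genes and 44272 with all 5 in the library labelled EC-Cx43-KO, and 6133 and 43533.5 in control. At the threshold, median depth was 12551.5 UMIs with 1 gene and 27621 with 2 in the library labelled EC-Cx43-KO. In control it was 14744.5 with 1 gene and 14493.5 with 2.

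The other 38 mitosis genes, which the call did not use, were concentrated in the dividing fibroblast-like cells. Summed, they reached 1785 CPM in dividing against 217 CPM in other fibroblast-like cells of the library labelled EC-Cx43-KO, a log2 ratio of 3.04 (2.97 to 3.11). In control the sums were 1932 CPM in dividing and 236 CPM in other cells, a log2 ratio of 3.03 (2.96 to 3.10). Of the 38, 36 had at least 20 UMIs in the 2 sets of cells together, and Cdc25c and Gas2l3 did not in either library. All 36 were higher by a log2 ratio of 0.58 or more in dividing cells of the library labelled EC-Cx43-KO, where 19.9% of all 13001 genes measured were, and 35 of 36 were in control, where 18.4% of 12926 were. A gene with fewer than 3 UMIs in the other cells took 3 there, which makes its ratio smaller than the counts alone would give. The exception in control was Psrc1, a spindle protein, at 1.47 CPM in dividing and 1.52 CPM in other cells.

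**Figure D2:**
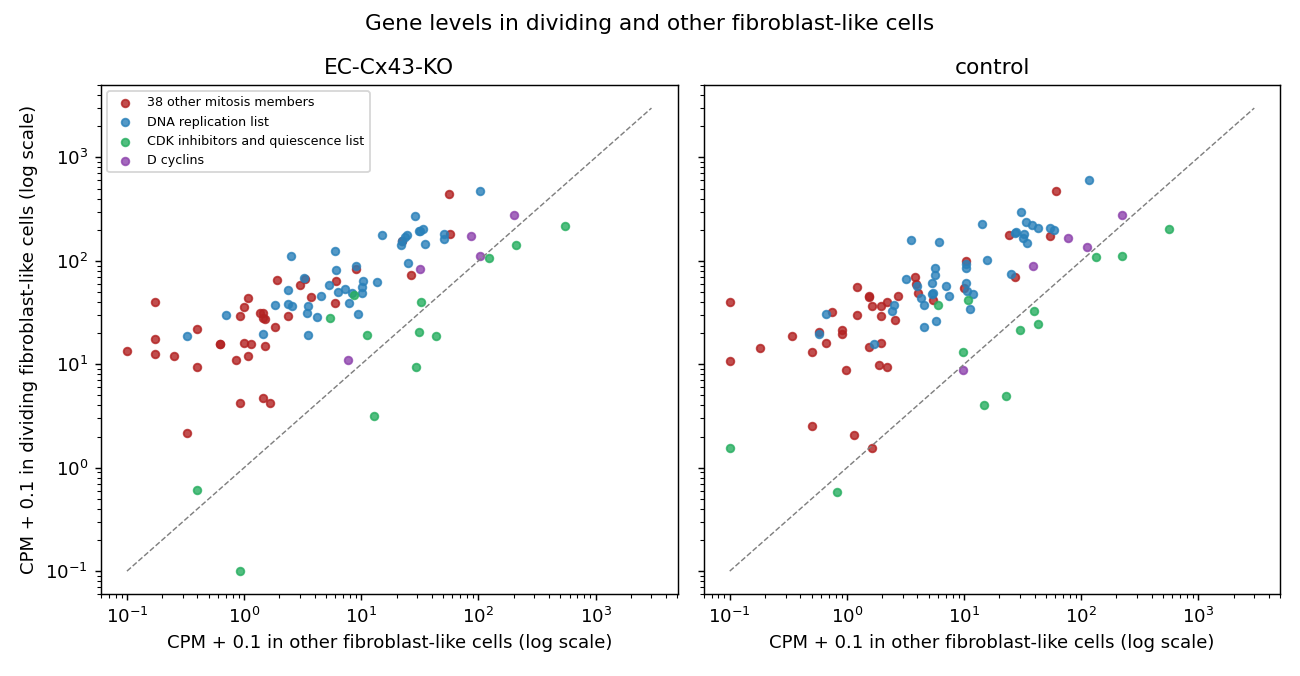
CPM of each gene in dividing (y axis) and in other fibroblast-like cells (x axis), both plus 0.1 on log scales, for the 38 mitosis genes outside the dividing call (red), DNA replication genes (blue), CDK inhibitors and quiescence genes (green) and the D cyclins with their kinases (purple). The dashed line marks equal levels. Red and blue points lie above the line in the EC-Cx43-KO library at left, Psrc1 lies just under it in the control library at right, and of the purple points Ccnd1 and Cdk4 lie above it and the other 3 nearer to it.

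Among the 6 chromosome structure genes, Top2a and Mki67 belong to the call. Top2a, the topoisomerase that untangles sister chromatids, had 668 UMIs in the 70 dividing cells of the library labelled EC-Cx43-KO and 677 in the 80 of control. Mki67, which coats mitotic chromosomes and keeps them apart, was found in 35 of 70 dividing cells in the library labelled EC-Cx43-KO and in 44 of 80 in control. Both values were set by the call and are given as a description.

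The other 4 chromosome genes were higher in dividing cells of both libraries. Smc4, a core subunit of condensin, had 157 CPM in dividing and 22.0 CPM in other cells of the library labelled EC-Cx43-KO (log2 2.83, 2.59 to 3.07) and 179 CPM and 24.3 CPM in control (log2 2.88, 2.66 to 3.11). Hmgb2, a DNA-bending chromatin protein, had 438 CPM in dividing and 56.0 CPM in other cells of the library labelled EC-Cx43-KO, and 477 CPM and 60.9 CPM in control. Ncapd2, a condensin I subunit, and Cdca2, a chromatin phosphatase regulator, followed with log2 ratios between 2.46 and 4.61 over both libraries.

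The CDK1 engine split into a part that is abundant in dividing fibroblast-like cells and one that is sparse. Cdk1 itself was found in 65.7% of dividing cells in the library labelled EC-Cx43-KO and in 72.5% in control, by the terms of the call. The CDK-binding subunit Cks1b had 181 CPM in dividing and 57.4 CPM in other cells of the library labelled EC-Cx43-KO (log2 1.66) and 172 CPM and 54.5 CPM in control (log2 1.66). Its close relative Cks2 had 83.0 CPM in dividing and 8.91 CPM in other cells of the library labelled EC-Cx43-KO (log2 3.22) and 100.1 CPM and 10.3 CPM in control (log2 3.29). Cks1b was thus present in fibroblast-like cells that were not called dividing, in 27.04% of them in the library labelled EC-Cx43-KO and 27.5% in control.

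Ccnb2, a mitotic cyclin, was found in 20.0% of dividing cells in the library labelled EC-Cx43-KO, with 23 UMIs, and in 17.5% in control, with 20 UMIs. Cdc25c, the phosphatase that activates CDK1, had 4 UMIs in dividing cells of the library labelled EC-Cx43-KO and 5 in control.

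All 8 kinetochore and checkpoint genes were higher in dividing cells of both libraries, with log2 ratios from 1.34 to 6.28. Hjurp, the chaperone that deposits the centromeric histone, had 72.1 CPM in dividing and 26.4 CPM in other cells of the library labelled EC-Cx43-KO and 69.3 CPM and 27.3 CPM in control, the smallest contrast of the group in control. Cenpf, a large kinetochore protein, had 63.4 CPM in dividing and 5.99 CPM in other cells of the library labelled EC-Cx43-KO and 55.7 CPM and 1.12 CPM in control. The 5.99 CPM came from 0.388% of the other cells, and 1 of them held 46 UMIs of the gene. Cenpe, a kinetochore motor, had log2 ratios of 4.60 in the library labelled EC-Cx43-KO and 3.99 in control. Cenpa, the centromeric histone itself, was found in 10.0% of dividing cells in both libraries, with 8 UMIs in the library labelled EC-Cx43-KO and 19 in control. The checkpoint kinases Bub1 and Ttk and the microtubule-binding Ndc80 and Nuf2 ranged from 4.52 to 6.28 over both libraries.

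The chromosomal passenger complex, which corrects faulty attachments and later directs cleavage, was represented by 3 genes. Birc5, its survivin subunit and a gene of the call, was present in 64.3% of dividing cells in the library labelled EC-Cx43-KO and in 66.3% in control, by the terms of the call. Aurkb was present in 48.6% of dividing cells in the library labelled EC-Cx43-KO and 47.5% in control, and Cdca8 in 41.4% and 40.0%. The kinase Aurkb had 43.3 CPM in dividing and 0.974 CPM in other cells of the library labelled EC-Cx43-KO and 45.9 CPM and 1.44 CPM in control. The targeting subunit Cdca8 had 27.8 CPM and 1.35 CPM in the library labelled EC-Cx43-KO and 36.1 CPM and 1.52 CPM in control.

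Of the 13 spindle genes, 12 lie outside the call, and all 12 were higher in dividing cells of the library labelled EC-Cx43-KO and 11 in control. Tpx2, which starts microtubules near chromosomes, had 66.0 CPM in dividing and 3.22 CPM in other cells of the library labelled EC-Cx43-KO and 70.3 CPM and 3.69 CPM in control. Kif11, the motor that pushes spindle poles apart, had 65.4 CPM and 1.80 CPM in the library labelled EC-Cx43-KO and 48.3 CPM and 3.93 CPM in control. Tacc3, a microtubule stabiliser, had log2 ratios of 3.71 in the library labelled EC-Cx43-KO and 4.10 in control. Hmmr, a microtubule-binding protein, had 77 UMIs in dividing and 1 in other cells of the library labelled EC-Cx43-KO, and 82 and 0 in control, a log2 ratio of at least 7.38 in control against a floor of 3 UMIs over the other cells. Aurka, the kinase of the spindle poles, was found in 12.9% of dividing cells in the library labelled EC-Cx43-KO and in 17.5% in control. Gtse1, Dlgap5, Kif2c, Nek2, Ckap2 and Ckap2l lay between 2.97 and 5.88 over both libraries.

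Cytokinesis genes were a mixed group. Anln, the scaffold of the cleavage furrow, had 57.7 CPM in dividing and 2.92 CPM in other cells of the library labelled EC-Cx43-KO and 59.1 CPM and 3.77 CPM in control. Kif23, a motor of the central spindle, had log2 ratios of 4.88 in the library labelled EC-Cx43-KO and 4.84 in control, and Kif20b, another cytokinesis motor, 3.72 and 3.43. Ect2, which activates the contractile ring, had 4.26 in both. Gas2l3, a linker of actin and microtubules, had 8 UMIs in dividing cells of the library labelled EC-Cx43-KO and 4 in control.

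The 3 degradation genes were found in a minority of dividing cells. Ube2c, the ubiquitin-conjugating enzyme of the anaphase-promoting complex, was present in 30.0% in the library labelled EC-Cx43-KO and in 40.0% in control. Cdc20, the activator of that complex, was present in 22.9% in the library labelled EC-Cx43-KO and in 27.5% in control. Cdca3, an adaptor for destruction of an inhibitor of mitotic entry, was present in 24.3% in the library labelled EC-Cx43-KO and in 35.0% in control.

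DNA replication genes made up a larger sum than the mitosis genes in the same cells. The 41 genes of that list summed to 4123 CPM in dividing and 639.7 CPM in other fibroblast-like cells of the library labelled EC-Cx43-KO (log2 2.69, 2.64 to 2.73) and to 4747 CPM and 730.3 CPM in control (log2 2.70, 2.66 to 2.74). All 41 were higher by a log2 ratio of 0.58 or more in dividing cells of both libraries. Of all genes measured, 19.9% were in the library labelled EC-Cx43-KO and 18.4% in control. The sliding clamp Pcna had 477 CPM in dividing and 103 CPM in other cells of the library labelled EC-Cx43-KO and 610.4 CPM and 116 CPM in control. Slbp, which binds histone mRNA, Pola1, a primase-polymerase subunit, and Mcm6, of the replicative helicase, had log2 ratios between 1.68 and 2.59 over both libraries.

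Counted per cell, 60 of 70 dividing fibroblast-like cells (85.7%) of the library labelled EC-Cx43-KO had more UMIs of the 41 replication genes than of the 43 mitosis genes, as did 71 of 80 (88.8%) in control. The medians were 104 replication and 38.5 mitosis UMIs in the library labelled EC-Cx43-KO and 94.5 and 39.5 in control. Replication genes also had the larger sum in the other fibroblast-like cells, so this order is not particular to dividing cells. There the 41 replication and 43 mitosis genes summed to 639.7 CPM and 227 CPM in the library labelled EC-Cx43-KO. In control these sums were 730.3 CPM and 248 CPM. Of 6 genes of late G2 and mitosis picked after their values were seen (Ccnb1, Ccnb2, Plk1, Cdc20, Aurka and Cenpa), no UMI was found in 36 dividing cells of the library labelled EC-Cx43-KO and in 36 of control, and 3 or more were found in 9 and 12 cells. Each of the 6 was found in 10.0 to 22.9% of dividing cells of the library labelled EC-Cx43-KO and in 10.0 to 27.5% in control. The medians over the 38 mitosis genes outside the call were 32.1% and 38.1%, so the number of cells without the 6 depends on that choice. No phase was assigned from these counts.

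Other genes of mitosis were mostly higher in dividing cells too. Of 47 further genes, 44 could be measured in the library labelled EC-Cx43-KO and 41 were higher in dividing cells by a log2 ratio of 0.58 or more. In control 45 of 46 were. Of all genes measured, 19.9% were in the library labelled EC-Cx43-KO and 18.4% in control. The condensin subunits Smc2 and Ncapg2 had 173 CPM and 107 CPM in dividing cells of the library labelled EC-Cx43-KO, against 23.9 CPM and 8.99 CPM in its other fibroblast-like cells, and 194 CPM and 142 CPM against 23.2 CPM and 10.6 CPM in control. Lmnb1, of the nuclear lamina, had log2 ratios of 1.31 in the library labelled EC-Cx43-KO and 1.29 in control. Pttg1, the securin that holds back separase, was lower in dividing cells, at 16.5 CPM against 42.01 CPM in other cells of the library labelled EC-Cx43-KO (log2 -1.35) and 20.0 CPM against 34.3 CPM in control (log2 -0.78).

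The inhibitors of the cycle did not move as one. Summed, 13 CDK inhibitor and quiescence genes had 648 CPM in dividing and 1056 CPM in other fibroblast-like cells of the library labelled EC-Cx43-KO and 607 CPM and 1098 CPM in control. Of the 11 that could be measured, 5 were lower by a log2 ratio of 0.58 or more in each library, where 18.8% of all genes were in the library labelled EC-Cx43-KO and 19% in control. Cdkn1b, Cdkn1c, Btg2 and Ccng2 were lower in both, together with Rbl2 in the library labelled EC-Cx43-KO and Cdkn1a in control, and these were named after their values were seen. Btg2, an antiproliferative immediate early gene, had 216 CPM in dividing and 548 CPM in other cells of the library labelled EC-Cx43-KO and 203 CPM and 563 CPM in control. Cdkn2c, an inhibitor of CDK4 and CDK6, and Rbl1, the p107 pocket protein, were higher in both libraries, with log2 ratios from 1.97 to 2.68, and Cdkn2d was higher in the library labelled EC-Cx43-KO at 0.79. Of the 5 D cyclins and their kinases, Ccnd1 and Cdk4 were higher, with log2 ratios of 1.41 and 1.03 in the library labelled EC-Cx43-KO and 1.19 and 1.12 in control.

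Many UMIs of the 43 genes nevertheless lay outside dividing fibroblast-like cells, which held 23.5% of them in the library labelled EC-Cx43-KO and 27.1% in control. For single genes this share ran from 0.627 to 79.3% in the library labelled EC-Cx43-KO, with a median of 41.1%, and from 0.336 to 82.9% in control, with a median of 45.0%. It exceeded 50% for 13 genes in the library labelled EC-Cx43-KO and for 19 in control. The 5 genes of the call are included in these figures, and their shares were set by the call. The 82.9% in control is that of Cdk1, a gene of the call, and the 79.3% in the library labelled EC-Cx43-KO is that of Nek2, which is not. The next values are levels over all cells of a class, dividing cells included, unless stated otherwise.

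**Figure D3:**
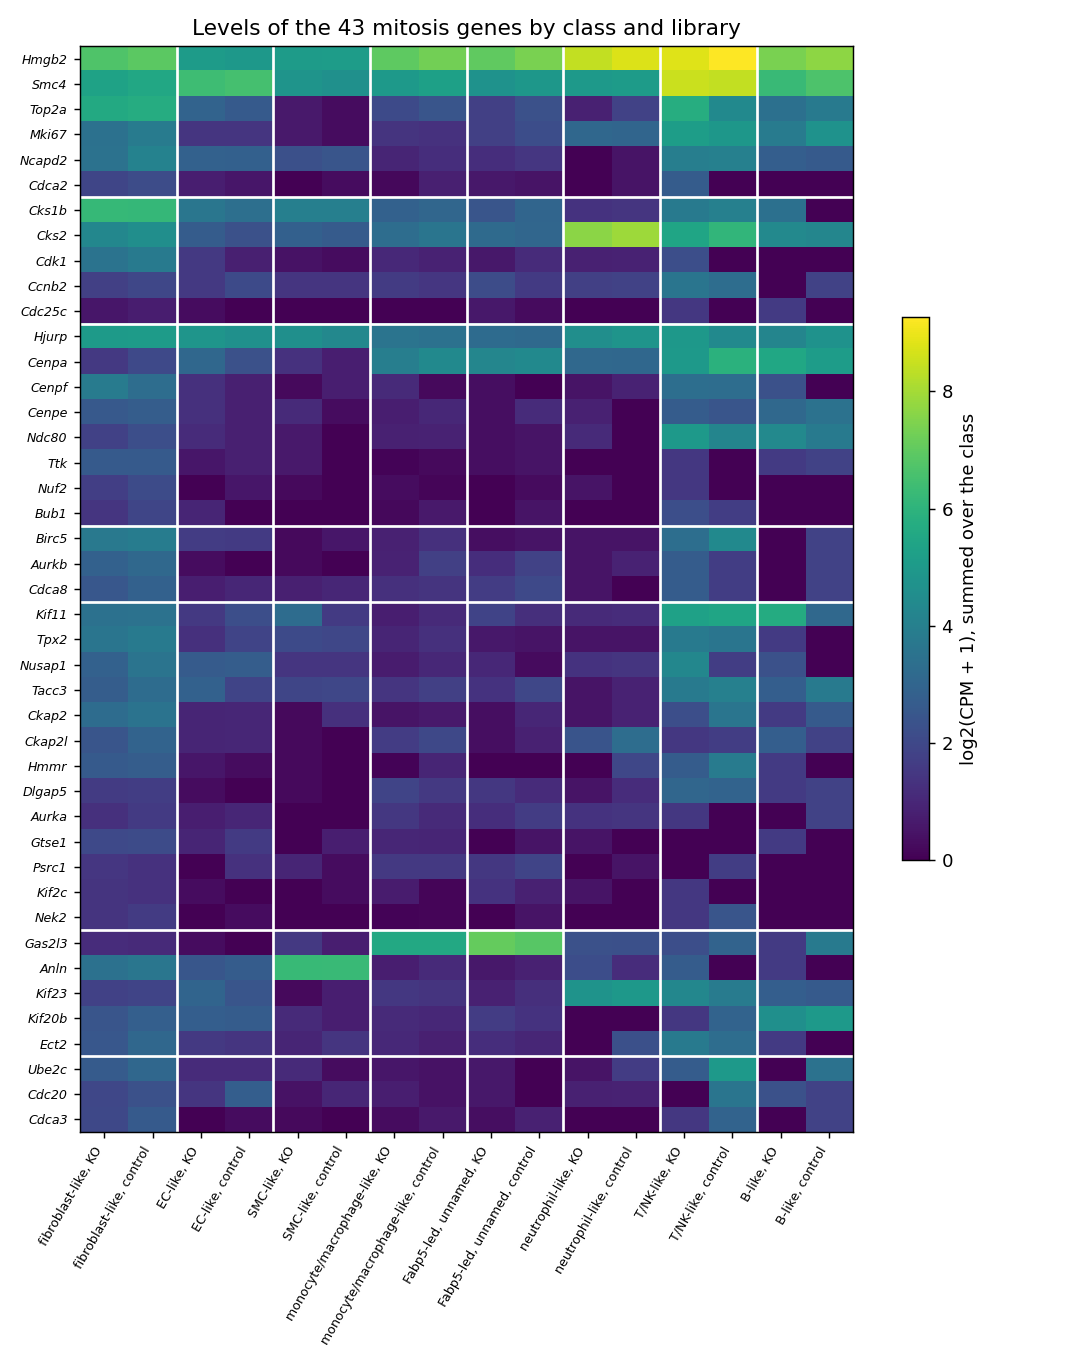
Levels of the 43 mitosis genes (rows, ordered by role from chromosome structure at top to degradation at bottom) in 8 classes of cells (columns, EC-Cx43-KO left of control in each pair), as log2 of CPM plus 1. Hmgb2 is bright in every class, and cells that stand out from the rest of their row include Smc4 in T/NK-like and EC-like cells, Cks2 and Kif23 in neutrophil-like cells, Anln in SMC-like cells and Gas2l3 in monocyte/macrophage-like cells and in the Fabp5-led cluster.

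SMC-like cells, with 1 dividing cell in all, had Anln at 73.8 CPM (66.6 to 81.4) in the library labelled EC-Cx43-KO and 77.0 CPM (68.8 to 86.0) in control. It was found in 40.9% of SMC-like cells in the library labelled EC-Cx43-KO and in 41.4% in control, so the UMIs were spread over many cells. Fibroblast-like cells had 9.87 CPM in the library labelled EC-Cx43-KO and 11.6 CPM in control, mostly from their dividing cells, and EC-like cells had 4.57 CPM and 5.40 CPM. Anln is an actin-binding protein as well as a furrow scaffold, and it was the only one of the 5 cytokinesis genes whose highest level outside dividing cells was in SMC-like cells in either library.

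The Fabp5-led cluster had Gas2l3 at 133 CPM (122 to 145) in the library labelled EC-Cx43-KO and 115 CPM (106 to 125) in control, in 56.2% and 46.3% of its cells. Monocyte/macrophage-like cells had 47.6 CPM in the library labelled EC-Cx43-KO and 46.9 CPM in control. The Cacna1d-led cluster, whose cells are shallow, had 135 CPM in the library labelled EC-Cx43-KO and 99.1 CPM in control. EC-like cells had 1 UMI of Gas2l3 in the library labelled EC-Cx43-KO and 0 in control. Only 0.627% of the gene's UMIs in the library labelled EC-Cx43-KO and 0.336% in control lay in dividing fibroblast-like cells, the lowest shares among the 43.

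Neutrophil-like cells had Cks2 at 200.1 CPM (183 to 218) in the library labelled EC-Cx43-KO and 239 CPM (220 to 260) in control, in 19.2% and 21.4% of the cells. Kif23 was at 25.8 CPM in the library labelled EC-Cx43-KO and 29.8 CPM in control. Hmgb2 was at 343 CPM in the library labelled EC-Cx43-KO and 434 CPM in control and made up 51.4% of the summed mitosis UMIs of neutrophil-like cells in the library labelled EC-Cx43-KO. The relative Cks1b had only 4 UMIs in neutrophil-like cells of each library, so in this class the pair was uneven, and in fibroblast-like cells it was uneven the other way, with Cks1b at 73.1 CPM and Cks2 at 18.3 CPM in the library labelled EC-Cx43-KO and 71.0 CPM and 22.9 CPM in control.

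Smc4 was high in thymocyte-like cells, at 429 CPM in the library labelled EC-Cx43-KO and 487 CPM in control, and in T/NK-like cells, at 369 CPM and 339 CPM. It stood at 81.5 CPM and 90.3 CPM in EC-like cells, where 33.5% and 39.2% of cells had a UMI. Hjurp was spread over the classes, between 19.0 and 33.2 CPM in fibroblast-like, EC-like, SMC-like and neutrophil-like cells of both libraries. Cenpa was low in fibroblast-like cells, at 1.90 CPM in the library labelled EC-Cx43-KO and 3.10 CPM in control, and higher in monocyte/macrophage-like cells, at 14.7 CPM and 19.8 CPM, and in B-like cells, at 44.7 CPM and 33.4 CPM. Hjurp deposits the Cenpa protein at centromeres, and the levels of the RNAs of this pair did not follow each other across these classes. Cdk1 is a gene of the call, which itself removes cells with Cdk1 and another of the 5 from those outside. There its highest level in a class of at least 100 cells per library was 1.70 CPM in the library labelled EC-Cx43-KO and 1.87 CPM in control, both in the Cacna1d-led cluster. All cells of that shallow cluster hold 637597 UMIs in the library labelled EC-Cx43-KO and 534842 in control. These levels thus rest on next to no Cdk1 UMIs and do not rank the cluster above others.

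Between the libraries, the summed 43 genes in fibroblast-like cells reached 504 CPM (493 to 515) in the library labelled EC-Cx43-KO and 578 CPM (566 to 591) in control, a log2 ratio of -0.20 (-0.24 to -0.15). Dividing cells held 60.8% of these UMIs in the library labelled EC-Cx43-KO and 63.1% in control. Outside dividing cells the sums were 227 CPM in the library labelled EC-Cx43-KO and 248 CPM in control, a log2 ratio of -0.13 (-0.20 to -0.06). A scaling by the median of gene ratios moved the middle of all genes by 0.08 on the log2 scale and left -0.11.

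Gene by gene, 42 of the 43 had at least 20 UMIs in fibroblast-like cells. Of these, 37 were below and 5 above a ratio of 1, with a median log2 ratio of -0.27, against -0.08 over 14435 genes. Taking a log2 ratio of 0.58 in either direction as the size that counts, 9 were lower and 1 higher in the library labelled EC-Cx43-KO, where 11.9% of all genes passed in either direction. These counts depend on the processing: 3 were lower and 0 higher with doublets kept, and 22 lower and 0 higher with up to 25% mitochondrial UMIs allowed. Most of these UMIs come from the same 70 and 80 cells, so the genes are not independent of each other or of the number of dividing cells.

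The members furthest below were Nusap1, Cdca3 and Bub1. Nusap1, a spindle protein of the call, had 98 UMIs in 50 cells of the library labelled EC-Cx43-KO and 158 UMIs in 73 cells of control (log2 -0.76, -1.14 to -0.39). Cdca3 had 46 UMIs in 21 cells of the library labelled EC-Cx43-KO and 74 UMIs in 36 cells of control (log2 -0.76, -1.32 to -0.21). Bub1 had 26 UMIs in 15 cells of the library labelled EC-Cx43-KO and 41 UMIs in 27 cells of control (log2 -0.73, -1.50 to 0.01). Cenpf was the 1 member above, with 203 UMIs in 37 cells of the library labelled EC-Cx43-KO and 128 UMIs in 42 cells of control (log2 0.59, 0.27 to 0.92). Without the cell with most Cenpf UMIs in each library its log2 ratio was 0.41, below the size used, and Ndc80 (-0.46) and Ckap2l (-0.52), among the 9 that lay below, also fell short of it.

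**Figure D4:**
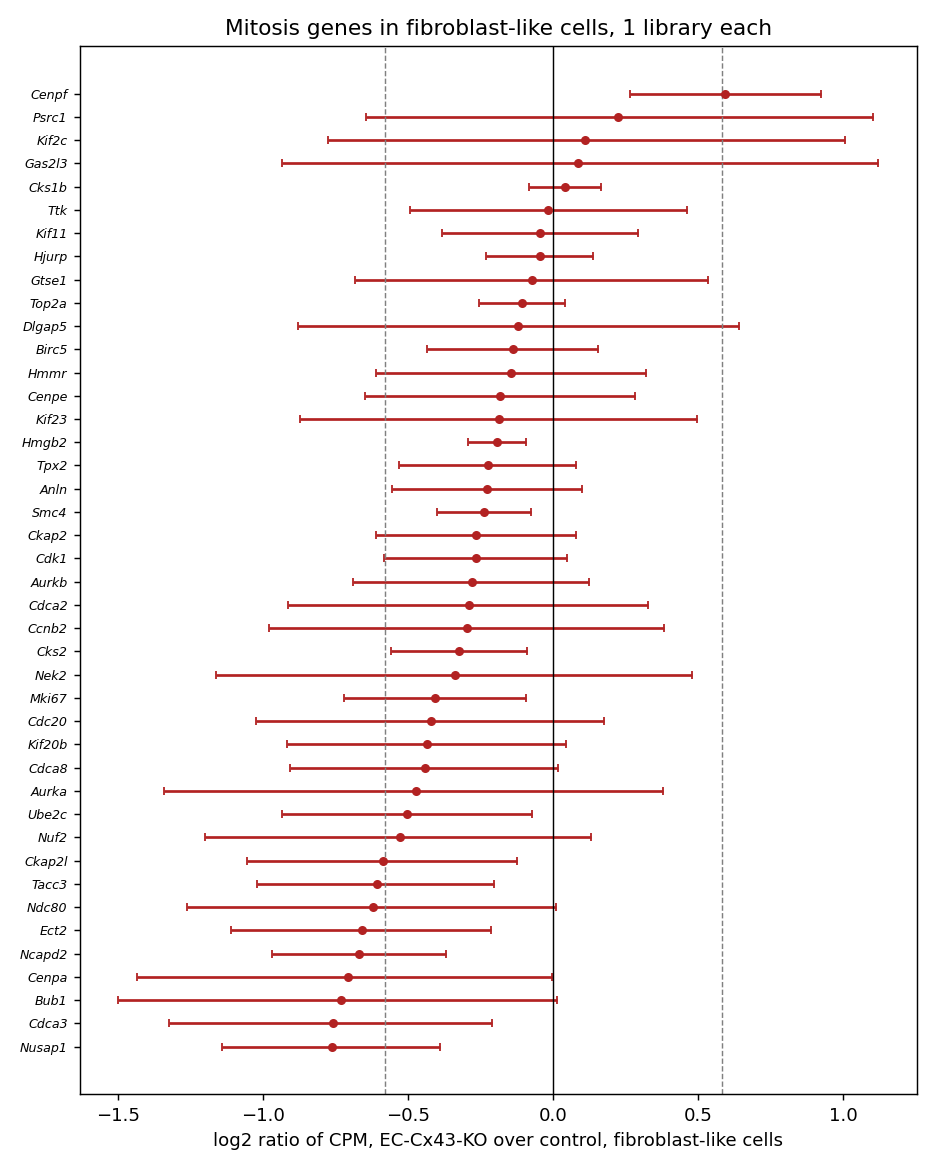
Log2 ratio of CPM in fibroblast-like cells, EC-Cx43-KO over control, for the 42 mitosis genes with at least 20 UMIs, with exact conditional 95% intervals for counting error. The solid line marks equal levels and the dashed lines a log2 ratio of 0.58 in either direction. Most points lie left of 0, 9 lie at or beyond the left dashed line, and Cenpf alone lies beyond the right one.

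EC-like cells are the class that the Cre promoter targets, and their summed mitosis genes differed by less than counting error, at 236 CPM (222 to 251) in the library labelled EC-Cx43-KO and 231 CPM (217 to 247) in control, a log2 ratio of 0.03 (-0.10 to 0.16). Of 16 members measured, 3 were higher and 3 lower, where 10.8% of all genes passed. That share covers every gene with at least 20 UMIs and was not matched to the members for level, so it cannot show an excess. Cdc20 had 7 UMIs in 7 cells of the library labelled EC-Cx43-KO and 24 UMIs in 23 cells of control (log2 -1.81, -3.27 to -0.55). Tacc3 had 26 UMIs in 22 cells of the library labelled EC-Cx43-KO and 11 UMIs in 10 cells of control (log2 1.21, 0.14 to 2.38). Cenpa (0.92) and Kif23 (0.66) also lay above, and Kif11 (-0.94) and Ccnb2 (-0.73) below, and of these only the interval of Cenpa, 0.01 to 1.89, left out 0.

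SMC-like cells summed to 214 CPM in the library labelled EC-Cx43-KO and 203 CPM in control (log2 0.08, -0.05 to 0.21). Of 10 members measured 1 passed the size, where 9.97% of all genes did. This was Kif11, with 46 UMIs in 16 cells of the library labelled EC-Cx43-KO and 8 UMIs in 6 cells of control (log2 2.15, 1.05 to 3.44). One cell held 14 of the 46, and without the top cell of each library the log2 ratio was 2.03.

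Monocyte/macrophage-like cells summed to 279 CPM in the library labelled EC-Cx43-KO and 328 CPM in control (log2 -0.23, -0.30 to -0.16), with Hmgb2 at 44.5% of the sum in the library labelled EC-Cx43-KO. The make-up of the class differed between the libraries. Its clusters led by Cxcl10 and Lyve1 had 297 and 251 cells in the library labelled EC-Cx43-KO and 48 and 91 in control. Those led by Tppp3 and Chil3 had 563 and 725 cells in the library labelled EC-Cx43-KO and 766 and 704 in control. The part of this make-up in the values of the class was not tested. Of 28 members measured, 1 was higher and 5 lower, where 13.9% of all genes passed. Aurkb, with 11 UMIs in 11 cells of the library labelled EC-Cx43-KO and 25 UMIs in 21 cells of control (log2 -1.45, -2.62 to -0.38), was furthest below, followed by Birc5 (-0.85) and by Kif11 and Anln (-0.68 each). Without the top cell of each library Birc5 was at -0.27. Aurka was above at 0.67, with 23 UMIs in the library labelled EC-Cx43-KO and 12 in control.

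Neutrophil-like cells summed to 667 CPM in the library labelled EC-Cx43-KO and 820.2 CPM in control (log2 -0.30, -0.39 to -0.20). Of 8 members measured, Ckap2l was lower, with 11 UMIs in the library labelled EC-Cx43-KO and 21 in control (log2 -1.03, -2.23 to 0.09), where 19.6% of all genes passed. In the Fabp5-led cluster 1 of 13 members was higher and 6 lower, where 10.8% of all genes, again not matched for level, passed. The furthest below were Tacc3 (-0.91), Top2a (-0.74) and Cks1b (-0.67), and Ccnb2 (0.79) was above, each with an interval that includes 0.

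In the last 2 classes of at least 100 cells per library, single cells set the values. In B-like cells Kif11 was 1 of 5 members measured to pass, where 24.2% of all genes did, and 23 of its 26 UMIs in the library labelled EC-Cx43-KO lay in 1 cell. In the Cacna1d-led cluster Hmgb2 and Ckap2l were 2 of 4 members measured to pass, where 25.1% of all genes did. One cell of the library labelled EC-Cx43-KO held 101 of 141 Hmgb2 UMIs there, and 1 held 24 of 26 Ckap2l UMIs, while control had 60 and 0. Without the top cell of each library the log2 ratio of Hmgb2 was -0.39, and Kif11 in B-like cells and Ckap2l were left with 3 UMIs or fewer in each library.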

How the data were processed

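RNA of single cells from 2 carotid artery libraries, 1 per group, was measured with 10x Genomics 3' chemistry. The authors deposited raw UMI counts per gene and barcode, made with Cell Ranger 8.0.1 on mm10, per the submitters' processing notes, which also name STAR without a version. Every deposited barcode had at least 501 UMIs.

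Barcodes under 300 detected genes or over 15% mitochondrial UMIs were removed. Doublets were ranked by simulated neighbours and removed at an assumed rate of 0.008 per 1000 cells. Clusters came from 2000 variable genes without cell cycle and histone genes, 30 principal components, 20 neighbours and Leiden resolution 1 (leidenalg 0.10.2, igraph 0.11.9, scikit-learn 1.9.0, SciPy 1.17.1, NumPy 2.4.6, pandas 2.3.3, matplotlib 3.10.9, Python 3.11.15). A cluster took a class name from at least 3 markers detected in 20% of its cells. Some naming rules, such as the pooling of T and NK cells and the counting of T markers towards thymocytes, were set after the clusters were seen.

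UMIs were summed per class and library and scaled to 1e+06 UMIs of the class total. A gene with fewer than 3 UMIs took 3 in a ratio. Shares have Clopper-Pearson, share ratios Katz, levels exact Poisson and level ratios exact conditional binomial intervals, all at 95%. A gene was measured with at least 20 UMIs in the cells compared and passed at a log2 ratio of 0.58 in size, a rule of size and not a test. Shares over all genes cover every gene so measured and were not matched to the members for level. The ratio and interval code was tested on simulated data.

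The members and lists were chosen with earlier results of these data known. Named were the genes of the dividing call, up to 4 members per role and per further list with most UMIs, up to 3 per direction in each class of at least 100 cells per library, and any members under 20 UMIs, of which there were none; others are said to be named after their values were seen, or complete a role or a count.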

Additional observations from a re-analysis of the deposited data

Results flagged for a closer look

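Among classes of at least 100 cells per library, the summed 43 mitosis genes lay lower in the library labelled EC-Cx43-KO in fibroblast-like, monocyte/macrophage-like and neutrophil-like cells and in the Fabp5-led cluster, with intervals below 0, and higher in the Cacna1d-led cluster, at 638 CPM in the library labelled EC-Cx43-KO and 344 CPM in control (log2 0.89, 0.64 to 1.15). Without Hmgb2, the Fabp5-led sums were 232 CPM in the library labelled EC-Cx43-KO and 228 CPM in control (log2 0.02, -0.10 to 0.15). The ratios without Hmgb2 stayed below 0 in fibroblast-like (-0.20), monocyte/macrophage-like (-0.16) and neutrophil-like cells (-0.25). The opposite direction of its sum marked the Cacna1d-led cluster for a closer look, and the difference between the classes was not tested. One dividing cell held 184 of the cluster's 407 mitosis UMIs in the library labelled EC-Cx43-KO. Without dividing cells the sums were 379 CPM and 344 CPM, a log2 ratio of 0.14 (-0.15 to 0.43).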

How the results depend on the processing

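No paired analysis was possible because each group is 1 library, and for the same reason no replicate was left out. Across 18 alternatives, 146 of 206 values stayed within the interval of the reported value or, for counts, within 1.5 times. No log2 ratio whose reported interval left out 0 changed sign. A change of direction was not looked for in shares, levels, counts or the log2 ratio of the dividing share. The EC-like share, lower in EC-Cx43-KO as reported and at 1000 and 2000 UMIs, was 0.310% in EC-Cx43-KO and 0 in control at 5000.

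Values outside follow, EC-Cx43-KO before control. The fibroblast-like dividing share was 2.60% and 3.98% with 3 genes, 0.542% and 1.03% (log2 -0.93) at 1000 UMIs, 1.10% and 2.12% (log2 -0.95) at 2000, and 3.35% in EC-Cx43-KO at 5000. With 2 UMIs in place of 2 genes it was 7.25% in control. The EC-like share was 1.61% and 2.51% with 2 UMIs and 0 and 0.235% at 1000 UMIs. In control EC-like cells it was 0.209% with 3 genes, 0.254% at 2000 UMIs, 0 at 5000 and 0.322% without cells bearing second-class markers. The fibroblast-like part of dividing cells was 64.9% and 71.8% with 2 UMIs and 66.7% in EC-Cx43-KO at 1000 and at 2000 UMIs.

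The fibroblast-like mitosis sum was 399 and 458 CPM without Hmgb2, 462 and 527 CPM without second-class cells, 337 and 421 CPM (log2 -0.32) as a mean over cells, 435 CPM in EC-Cx43-KO (log2 -0.40) at 25% mitochondrial UMIs, and 566 CPM in control (log2 -0.15) with doublets kept. Median-of-ratios scaling gave log2 -0.11. Members lower numbered 22 at 25% mitochondrial UMIs, 21 as a mean over cells, 5 under that scaling and 3 with doublets kept. Members higher numbered 2 as a mean over cells and 0 at 500 genes, at 10% or 25% mitochondrial UMIs and with doublets kept. The cause was not tested. At 25%, with doublets kept and at resolution 2.0, 1 shallow fibroblast-like cluster stayed unnamed.

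Log2 ratios of dividing over other fibroblast-like cells for the 38 members, other mitosis and replication genes were, at 1000 UMIs, 3.29, 3.38 and 3.15 in EC-Cx43-KO and 3.32, 3.26 and 2.56 in control. With 3 genes they were 3.23 and 3.07 for the 38 and the other mitosis genes in EC-Cx43-KO, and 3.10 for the 38 and 2.64 for replication in control. Without second-class cells they were 2.94, 2.70 and 2.64 in EC-Cx43-KO. At 25% mitochondrial UMIs other mitosis and replication gave 2.74 and 2.80 in EC-Cx43-KO, and with doublets kept replication gave 2.75 and 2.76.

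With 1 library per group, depth, sex mix and the cluster make-up of classes move with the label and cannot be told apart from it. Rarely dividing classes rest on 0 to 7 cells.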

Other observations

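The Adgre4-led cluster, with 132 cells in the library labelled EC-Cx43-KO and 67 in control, summed to 1257 CPM of the 43 mitosis genes in the library labelled EC-Cx43-KO and 534 CPM in control. One dividing cell of the library labelled EC-Cx43-KO held 734 member UMIs, more than any other kept cell of either library. Without dividing cells the sums were 545 CPM and 534 CPM, a log2 ratio of 0.03 (-0.19 to 0.25).

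Thymocyte-like cells had the highest sums of the named classes, at 1766 CPM in 55 cells of the library labelled EC-Cx43-KO and 2932 CPM in 45 cells of control, and dividing cells held 49.4% and 72.8% of those UMIs. Without dividing cells the sums were 957 CPM and 959 CPM.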
